A study of Homo sapiens with 13 samples.

Results

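The long intergenic noncoding RNA (LINC) genes described here are the rows of the count table whose symbol is LINC followed by digits and that had at least 10 counts in 4 or more of the 13 libraries. The rule kept 242 of 1926 such rows in a table of 45744 genes. Of the other LINC rows, 1018 had no count in any library and 666 had counts but fell short of the minimum. The cells are HuT78, an established human T cell line from a patient with Sézary syndrome, the leukaemic form of cutaneous T cell lymphoma. They were exposed for 72 h to 10 nM chaetocin (4 libraries, replicates 1 to 4), 10 nM F5446 (3 libraries, replicates 2 to 4), 1 µM romidepsin (4 libraries, replicates 1 to 4) or the solvent control DMSO (2 libraries, replicates 1 and 4). Chaetocin is a fungal metabolite used as an inhibitor of SUV39H1, a histone methyltransferase of silenced chromatin, and F5446 is a compound used against the same enzyme. Romidepsin inhibits histone deacetylases and is a drug for cutaneous T cell lymphoma. All groups are the same cell line, so they stand for 1 patient's tumour cells after long culture. For the F5446 libraries the treatment tags differ in the last digit of the code name, and grouping followed the titles, which all read F5446.

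LINC is a naming class and not a family related by sequence. A gene receives the symbol when a spliced or unspliced long transcript without an evident protein is found, usually between coding genes, and a later symbol may record its position or function. Many such genes are transcribed at low levels and in few cell types, many start at CpG-rich promoters that they share head to head with a coding gene, and histone methylation and deacetylation are among the mechanisms that keep such sites silent. The question put to the class is whether low noncoding transcripts were higher after either kind of inhibitor.

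The deposited gene types call 195 of the 242 genes lincRNA, 18 processed transcripts and 16 antisense. A further 9 carry a type of transcribed pseudogene, 2 are bidirectional promoter RNAs, 1 is sense overlapping and 1, LINC00672, is called protein coding. In current nomenclature 28 of the 242 have another symbol. LINC01578 is now CHASERR, LINC02001 is SNHG30 and LINC01146 is HISLA. For 15 the current symbol ends in DT, for divergent transcript, and names the coding gene that starts next to it on the other strand. Whether counting used strand was not given in the sources used here. If it did not, reads of an antisense or divergent transcript and of an overlapping partner cannot be told apart. Reads of a transcribed pseudogene and of its parent gene may be split between them.

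The promoters of 5 genes are shown because a promoter's CpG content bears on how it is silenced and because these genes carry the results below. LINC02062, LINC00471 and LINC01358 are the LINC genes with the smallest p for chaetocin against DMSO, for romidepsin against DMSO and for chaetocin against F5446, and LINC00667 and LINC00892 are abundant members with contrasting promoters. Each sequence is the RefSeq window from 250 bases before to 50 bases after the gene's start in GRCh38.p14, on the strand of the gene, with CG dinucleotides in capitals. The windows are chr5:98928312-98928611 (plus strand), chr2:231514328-231514627 (minus), chr1:59020226-59020525 (plus), chr18:5237850-5238149 (plus) and chrX:136639293-136639592 (plus).
LINC02062: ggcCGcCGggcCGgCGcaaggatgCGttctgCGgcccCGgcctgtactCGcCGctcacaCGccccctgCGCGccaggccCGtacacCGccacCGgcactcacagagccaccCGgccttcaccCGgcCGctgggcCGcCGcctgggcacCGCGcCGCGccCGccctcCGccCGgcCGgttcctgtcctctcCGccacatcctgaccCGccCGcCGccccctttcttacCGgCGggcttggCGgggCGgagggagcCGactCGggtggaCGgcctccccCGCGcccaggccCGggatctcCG
LINC00471: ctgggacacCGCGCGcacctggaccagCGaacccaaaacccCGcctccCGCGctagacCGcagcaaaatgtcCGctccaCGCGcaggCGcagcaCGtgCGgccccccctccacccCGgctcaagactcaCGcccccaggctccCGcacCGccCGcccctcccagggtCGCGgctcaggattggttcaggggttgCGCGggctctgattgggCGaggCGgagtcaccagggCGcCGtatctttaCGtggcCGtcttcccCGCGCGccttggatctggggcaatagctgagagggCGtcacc
LINC01358: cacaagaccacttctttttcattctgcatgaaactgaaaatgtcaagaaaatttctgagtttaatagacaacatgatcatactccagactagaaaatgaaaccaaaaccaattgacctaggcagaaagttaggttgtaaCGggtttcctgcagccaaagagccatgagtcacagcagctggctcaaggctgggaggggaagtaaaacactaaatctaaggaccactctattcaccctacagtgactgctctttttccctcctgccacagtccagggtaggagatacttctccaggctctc
LINC00667: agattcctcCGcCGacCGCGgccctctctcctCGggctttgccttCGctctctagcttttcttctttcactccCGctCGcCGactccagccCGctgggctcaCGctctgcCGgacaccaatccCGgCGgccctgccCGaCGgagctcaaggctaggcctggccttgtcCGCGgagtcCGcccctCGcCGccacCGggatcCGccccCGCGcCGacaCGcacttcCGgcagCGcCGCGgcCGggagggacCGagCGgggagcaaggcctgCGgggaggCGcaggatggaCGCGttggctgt
LINC00892: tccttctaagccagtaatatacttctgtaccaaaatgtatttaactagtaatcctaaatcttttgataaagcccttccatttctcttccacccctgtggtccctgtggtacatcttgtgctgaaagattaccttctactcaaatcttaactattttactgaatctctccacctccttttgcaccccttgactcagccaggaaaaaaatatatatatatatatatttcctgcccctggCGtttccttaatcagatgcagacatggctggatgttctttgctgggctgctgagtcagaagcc

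The window of LINC02062 held 43 CG dinucleotides, that of LINC00667 38 and that of LINC00471 33. The windows of LINC01358 and LINC00892 held 1 each. RefSeq promoters were matched for 154 of the 242 genes. A promoter was called CpG-rich with at least 50% G and C and a ratio of observed to expected CG of at least 0.6. By that measure 72 of the 154 LINC promoters (46.8%) were CpG-rich, against 46.9% of all 35114 RefSeq promoters, and the median window held 14 CG dinucleotides in both sets. The letters TATAAA on either strand were in 20 LINC windows (12.99%) and in 11.5% of all windows. The genes with CpG-rich promoters had a median level of 1.69 CPM, and the 82 others 1.19 CPM. CPM is the depth-normalised read count, here over library totals scaled by trimmed mean of M-values (TMM).

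Most of the 242 genes were rare transcripts. The median of the genes' mean levels over all 13 libraries was 1.39 CPM, with a range of 0.196 to 79.0 CPM, and the median over all 17252 tested genes was 10.2 CPM. Means under 1 CPM were found for 105 genes, of 1 to 5 CPM for 100 and over 5 CPM for 37. At least 10 counts in all 13 libraries were found for 113 genes, and 154 had a count in every library. At the edge of the rule, LINC02590, LINC01185 and LINC01227 were kept with a fourth-highest count of 10, while LINC02019, LINC02458 and LINC01715 fell outside with 9.

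A few genes held much of the signal. LINC00667 took 9.09% of all counts of the 242 genes and the 12 most abundant took 40.6%. LINC00667 had 82.4, 80.9, 83.9 and 66.7 CPM in the chaetocin libraries, 83.1, 72.9 and 71.1 CPM with F5446, 85.1, 88.1, 78.9 and 76.8 CPM with romidepsin, and 82.2 and 74.7 CPM in DMSO. The 4 groups overlapped throughout. LINC02446 had 20.8, 31.4, 39.8 and 43.1 CPM with chaetocin, 33.9, 49.2 and 50.2 CPM with F5446, 26.7, 50.5, 82.2 and 32.4 CPM with romidepsin, and 26.4 and 44.7 CPM in DMSO. The romidepsin libraries alone spanned more than all others together. LINC02506 had 24.4, 29.9, 57.2 and 31.4 CPM with chaetocin, 38.3, 32.6 and 26.6 CPM with F5446, 32.1, 31.3, 38.1 and 34.5 CPM with romidepsin, and 26.3 and 26.5 CPM in DMSO. Chaetocin replicate 3 was the high library, and each romidepsin library was above both DMSO libraries.

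Per kilobase of exon, with lengths from GENCODE 29, the order was different. LINC02446, with 868 bases of exon, had 47.1 CPM per kb and LINC02506, with 734 bases, had 45.0 CPM per kb. LINC00674 followed at 13.1, LINC00885 at 12.7, LINC00892 at 12.2 and the long LINC00667, with 6652 bases, at 11.9 CPM per kb.

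**Figure D1:**
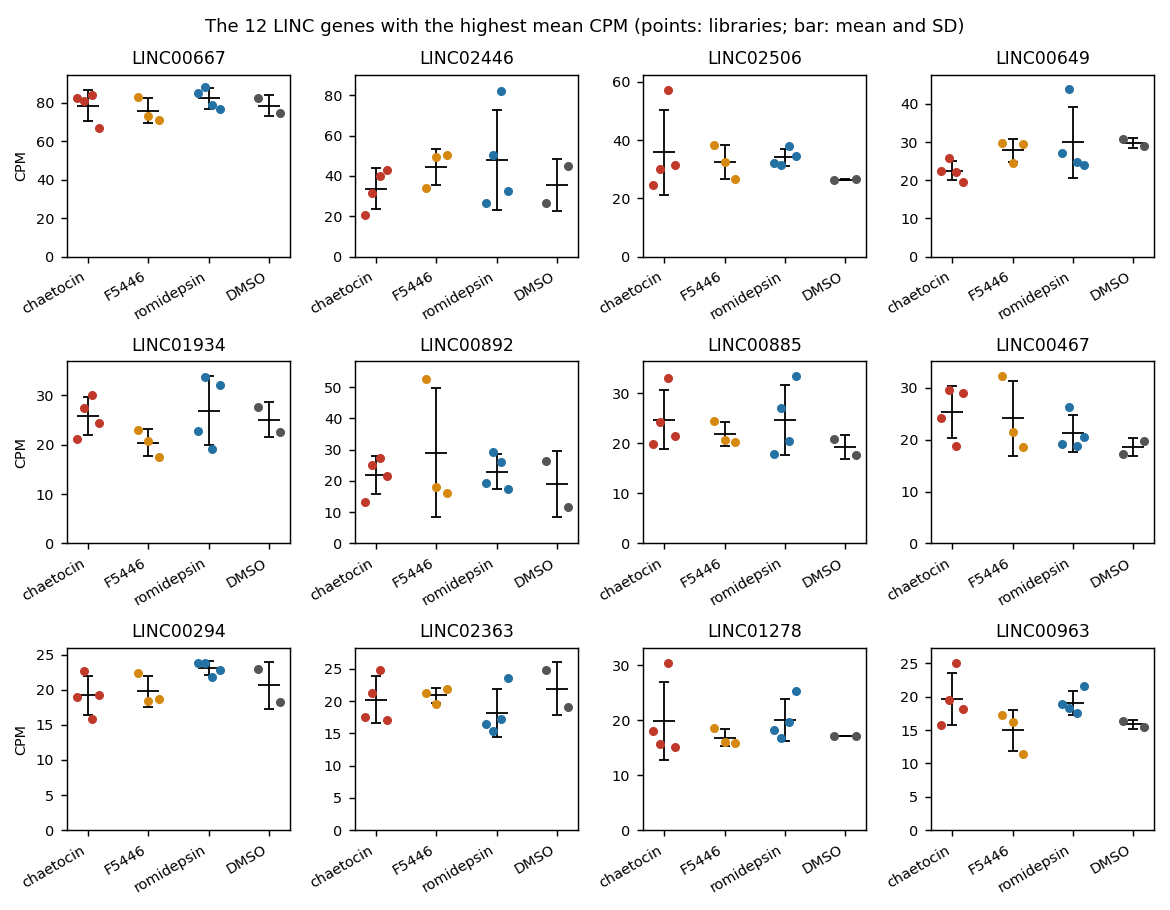
CPM of the 12 LINC genes with the highest mean in each library of chaetocin (n = 4), F5446 (n = 3), romidepsin (n = 4) and DMSO (n = 2), with the vertical axis in CPM. Points are libraries and bars give mean and SD, and LINC00667 stays between 66.7 and 88.1 CPM in all 13 libraries.

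Coding neighbours, as named by GENCODE 29, give the setting of some of these genes. A neighbour here is the nearest coding gene on either side, at any distance, so a shared locus is not implied. LINC00892 lies next to CD40LG, which encodes the CD40 ligand of activated helper T cells. LINC00892 had 13.3, 25.1, 27.5 and 21.7 CPM with chaetocin, 52.7, 18.1 and 16.2 CPM with F5446, 19.4, 29.1, 26 and 17.3 CPM with romidepsin, and 26.4 and 11.6 CPM in DMSO. CD40LG itself averaged 0.726 CPM over the 13 libraries and ranged from 0 to 1.44 CPM. LINC02506 averaged 33.0 CPM, its neighbour PCDH7, a protocadherin gene, 0.0241 CPM and its other neighbour ARAP2 39.1 CPM. LINC00885 averaged 23.2 CPM beside TFRC, the transferrin receptor gene, at 779 CPM and ZDHHC19 at 0. These values are not scaled for gene length. CHASERR (LINC01578), which restrains its neighbour CHD2 in mouse, was picked out after its values were seen. It had 16.3, 17.5, 15.3 and 19.8 CPM with chaetocin, 16.8, 17.5 and 22.5 CPM with F5446, 15.3, 17.7, 12.3 and 13.7 CPM with romidepsin, and 15.9 and 16 CPM in DMSO. CHD2, a chromatin remodeller gene, ranged from 108 to 193 CPM over the same libraries.

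The summed share of reads of the 242 genes with each compound differed from that in DMSO by less than the SD between that compound's libraries. In bulk RNA, fewer cells with a transcript and less of it per cell cannot be told apart. Summed counts were 0.0833 ± 0.0061% of all counts with chaetocin (SD, n = 4), 0.0864 ± 0.0085% with F5446 (n = 3), 0.0909 ± 0.0075% with romidepsin (n = 4) and 0.0859 ± 0.0033% in DMSO (n = 2). Romidepsin replicate 2 was the highest library, at 0.102%. With the libraries thinned to the lowest depth of 19901052 counts, LINC genes with at least 10 counts numbered 191.0 ± 10.0 with chaetocin, 190.9 ± 9.4 with F5446, 193.3 ± 12 with romidepsin and 209.8 ± 13.2 in DMSO. The 3 compounds' means were below that of DMSO, and the ranges of chaetocin, F5446 and romidepsin libraries each overlapped that of DMSO. The difference was not tested. Over all genes of the table, those with at least 10 counts at equal depth numbered 14385 to 14866 with chaetocin, 14373 to 14607 with F5446, 14336 to 14995 with romidepsin, and 14567 and 15053 in DMSO. LINC genes with at least 1 count numbered 360.9 ± 117.4 with chaetocin, from 243.4 to 505.7, and 362.1 ± 54.7 in DMSO.

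Chaetocin replicate 3 stood apart in its rare transcripts. It had 244 LINC genes with a count, of which 39 (16%) had 1 to 9 counts, while in the other 12 libraries the share was 28.2% to 53.4%. It lacked any count for 44 of the 242 genes, and the other libraries for 4 to 23. The same was seen over all genes, where 8.30% of its detected genes had 1 to 9 counts, against 13.3% to 26.3% elsewhere. Chaetocin replicate 2, at 30816188 counts the deepest library, had the most LINC genes with a count, 525. The LINC rows outside the 242 summed to 55.4 CPM in chaetocin replicate 2 and to 58.9 CPM in DMSO replicate 4, against 21.2 to 31.8 CPM in the other 11 libraries. Without chaetocin replicate 3 the mean share of the 242 genes with chaetocin was 0.0843% and the number with at least 10 counts at equal depth 191.6.

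**Figure D2:**
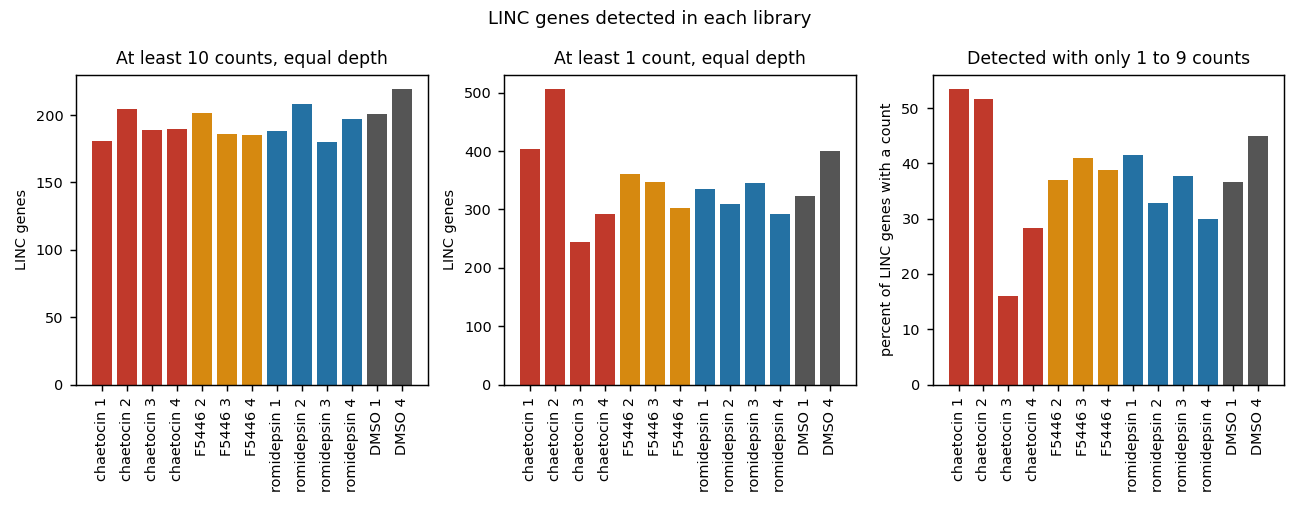
LINC genes with at least 10 counts and at least 1 count at equal depth, and the share of LINC genes with a count that had 1 to 9 counts (percent), in each of the 13 libraries. Chaetocin replicate 3 has the lowest share, 16%, and chaetocin replicates 1 and 2 the highest, 53.4% and 51.6%.

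Many LINC genes went from no count to the minimum count between libraries of 1 group. For 84 of the 242 (34.7%) some library had 0 counts while another of the same group had at least 10, and the same held for 20.4% of the 17252 tested genes, whose levels are higher. LINC02458, outside the rule, shows the pattern, with 31, 0, 28 and 0 counts in the 4 romidepsin libraries.

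The cell type was checked with lists of marker genes. The T cell markers CD3D, CD3E, CD3G, CD4, LCK and GATA3 were all expressed, CD2 was low at 4.78 to 11.7 CPM, and CD28 was at 0 to 1.05 CPM, with a sum over the 8 T cell markers of 1208 to 2573 CPM. The myeloid list summed to 0.304 to 2.66 CPM and the erythroid genes HBA1 and HBB were at 0. Of the B cell genes, CD79A was at 26.3 to 78.0 CPM, MS4A1 at 7.72 to 33.3 CPM and CD79B at 2.31 to 7.64 CPM. The fibroblast list summed to 26.3 to 51.5 CPM. In it COL1A1 was at 14.3 to 32.0 CPM and PDGFRB at 10.7 to 33.3 CPM. COL1A2 was at or under 0.193 CPM and DCN at or under 0.0435 CPM. The keratinocyte list summed to 55.4 to 87.8 CPM. In it KRT10 was at 30.3 to 66.0 CPM, EPCAM at 15.6 to 25.2 CPM and KRT5 at 0.821 to 6.18 CPM. KRT14 was at or under 0.696 CPM. The F5446 libraries summed to 1479 to 1869 CPM of T cell markers and 0.742 to 1.01 CPM of myeloid markers, above DMSO at 1280 to 1444 CPM and 0.338 to 0.479 CPM. The erythroid genes aside, the other sums given for each compound overlapped those in DMSO, and the part of the marker lists in the LINC levels was not tested.

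Each compound was compared with DMSO, and chaetocin with F5446, in 1 fit of all 17252 genes with edgeR's quasi-likelihood test and Benjamini-Hochberg adjustment over all genes. Of the 242 LINC genes 241 entered the fit and LINC01185 did not pass its filter on low counts. No LINC gene passed an adjusted p of 0.05 in any of the 4 comparisons. That is 0 of 241 in each, beside a background of 0% of all genes. At an unadjusted p under 0.05 there were 5 LINC genes with chaetocin against DMSO, 2.07% where 4.07% of all genes met the same rule. There were 4 with F5446 against DMSO (1.66%, background 2.48%), 7 with romidepsin against DMSO (2.90%, background 2.82%) and 8 with chaetocin against F5446 (3.32%, background 3.40%). DESeq2 also called 0 LINC genes in each comparison. The 3 comparisons against DMSO share their control libraries.

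The fold changes were centred near 0. On the log2 scale the median over the 241 genes was -0.03 with chaetocin, -0.06 with F5446 and 0.05 with romidepsin against DMSO, and 0.07 for chaetocin against F5446. Over all genes the 4 medians lay between -0.000475 and 0.00915. Without DMSO replicate 1 the LINC medians against DMSO were 0.21 with chaetocin, 0.11 with F5446 and 0.27 with romidepsin, and without DMSO replicate 4 they were -0.08, -0.12 and -0.01, so the sign of the median changed with the control library left out. Fold changes above 0 were found for 116 genes with chaetocin (background 51.0%), 108 with F5446 (background 51.2%), 129 with romidepsin (background 51.0%) and 127 for chaetocin against F5446 (background 49.9%). Libraries of a compound and of DMSO did not overlap for 25 genes with chaetocin (10.4%, background 11.3%), 44 with F5446 (18.3%, background 18.6%) and 31 with romidepsin (12.9%, background 10.3%). Chaetocin and F5446 libraries did not overlap for 17 genes (7.05%, background 5.38%).

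The precision depended on the level. The 95% confidence interval of a log2 fold change with chaetocin against DMSO had a median half-width of 2.93 for genes under 1 CPM, 1.18 for genes of 1 to 5 CPM and 0.57 for genes over 5 CPM. It was 1.60 over the 241 genes and 0.64 over all genes. Fitted fold changes past 1 on the log2 scale in either direction were found for 48 LINC genes with chaetocin (19.9%, background 12.5%), 24 above and 24 below. With F5446 there were 48 (19.9%, background 12.7%), 23 above and 25 below, and with romidepsin 49 (20.3%, background 12.6%), 27 above and 22 below. Among the 37 genes over 5 CPM, where the intervals are narrow, the fold changes ran from -0.41 to 0.72 with chaetocin, from -0.44 to 0.86 with F5446 and from -0.31 to 0.43 with romidepsin, all against DMSO.

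**Figure D3:**
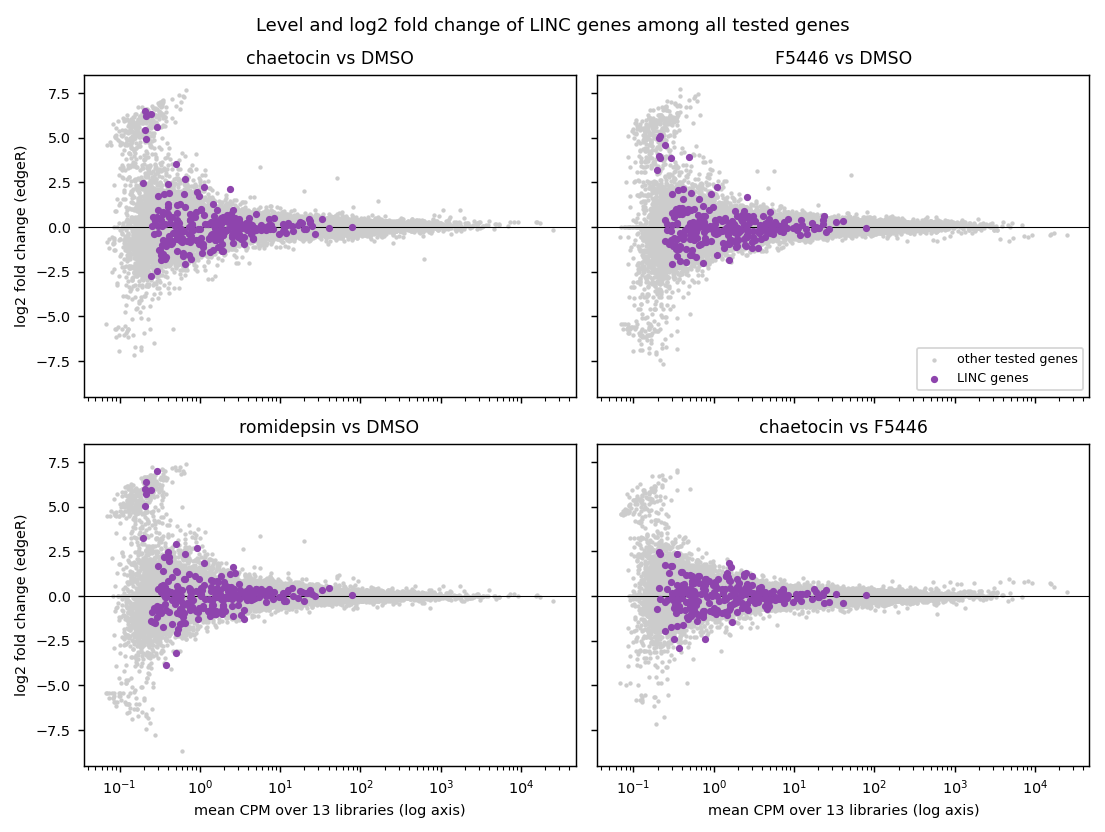
Log2 fold change of each tested gene in edgeR against its mean CPM over 13 libraries (log axis), with 241 LINC genes in purple over all other tested genes in grey, for the 4 comparisons. LINC genes fan out at low CPM as other genes do, and the LINC points near 5 and above against DMSO are genes with no count in either DMSO library, whose fitted fold depends on the prior count.

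Between chaetocin and DMSO the gene with the smallest p was LINC02062, now CHD1-DT, the divergent transcript of the chromatin remodeller gene CHD1. It had 2.44, 1.91, 5.68 and 5.44 CPM in the chaetocin libraries, 0.808, 2.03 and 2.13 CPM with F5446, 1.88, 1.05, 2.53 and 2.88 CPM with romidepsin, and 0.958 and 0.821 CPM in DMSO. Every chaetocin library was above both DMSO libraries, and chaetocin replicates 3 and 4 were the high ones. The log2 fold change was 2.11 for chaetocin against DMSO (95% interval 0.81 to 3.41), and the adjusted p in edgeR was 1. Without chaetocin replicate 3 the log2 fold change was 1.87. Over 23 other settings of the fit the fold change was between 1.86 and 2.34, and the lowest adjusted p was 0.243. Taken only within replicate numbers 1 and 2, with 1 DMSO library, the log2 ratio of mean CPM plus 0.1 was 1.10. Within numbers 3 and 4, also with 1 DMSO library, it was 2.62. LINC02062 was picked by its p over these same libraries, so the parts are no separate support. With F5446 the log2 fold change against DMSO was 0.88 (interval -0.41 to 2.18) and with romidepsin 1.23 (interval -0.03 to 2.49). CHD1 itself ranged from 160 to 199 CPM over all libraries, with a log2 fold change of -0.02 for chaetocin against DMSO.

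LINC00226 had 1.52, 1.13, 0.847 and 1.87 CPM with chaetocin, and 4.26 and 2.61 CPM in DMSO, with a log2 fold change of -1.35 (interval -2.51 to -0.19), and -1.19 without chaetocin replicate 3. All chaetocin libraries were below both DMSO libraries. LINC02362 had 6, 32, 13 and 13 counts with chaetocin and 0 and 2 counts in DMSO. The ratio of its summed CPM, 64 against 2 counts, was 13.2 with an exact 95% interval of 3.51 to 111 that covers counting error only. Both DMSO counts were in DMSO replicate 4, and the fitted log2 fold change of 3.52 became 6.90 without that library and 2.59 without DMSO replicate 1. LINC02354 had 3, 15, 12 and 16 counts with chaetocin and none in either DMSO library. Its summed level with chaetocin was 6.33 times a floor of 3 counts set over both DMSO libraries. That ratio leaves out counting error in the chaetocin counts and the spread between libraries, so it is no lower bound. F5446 gave 0, 0 and 5 counts of LINC02354 and romidepsin 0, 0, 14 and 4. LINC02354 thus met the count rule through chaetocin and romidepsin libraries alone. A gene counted only in the 2 DMSO libraries could not meet a rule of 4 libraries, so the rule favours genes absent from DMSO. With romidepsin LINC02362 averaged 0.265 CPM in replicates 1 and 2 and 0.526 CPM in replicates 3 and 4. It was at 0 CPM in DMSO replicate 1 and 0.0966 CPM in DMSO replicate 4. LINC02362 and LINC02354 are under 1 CPM, and neither passed the test after adjustment in edgeR (adjusted p = 1 for each).

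LINC00471, whose CpG-rich promoter is shown above, neighbours NCL, the nucleolin gene. It had 1.70, 2.35, 2.19 and 2.64 CPM with chaetocin, 3.17, 2.22 and 3.71 CPM with F5446, 1.39, 2.25, 2.33 and 1.76 CPM with romidepsin, and 4.02 and 4.25 CPM in DMSO. All libraries of the 3 compounds were below both DMSO libraries. The gene was picked by its p against these same DMSO libraries, so the shared direction is no separate support. The log2 fold change against DMSO was -0.90 with chaetocin (interval -1.74 to -0.05), -0.45 with F5446 (interval -1.35 to 0.45) and -1.09 with romidepsin (interval -1.94 to -0.25). Without chaetocin replicate 3 the value for chaetocin was -0.89. Adjusted over all genes in edgeR, each p was 1. NCL averaged 3372 CPM.

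**Figure D4:**
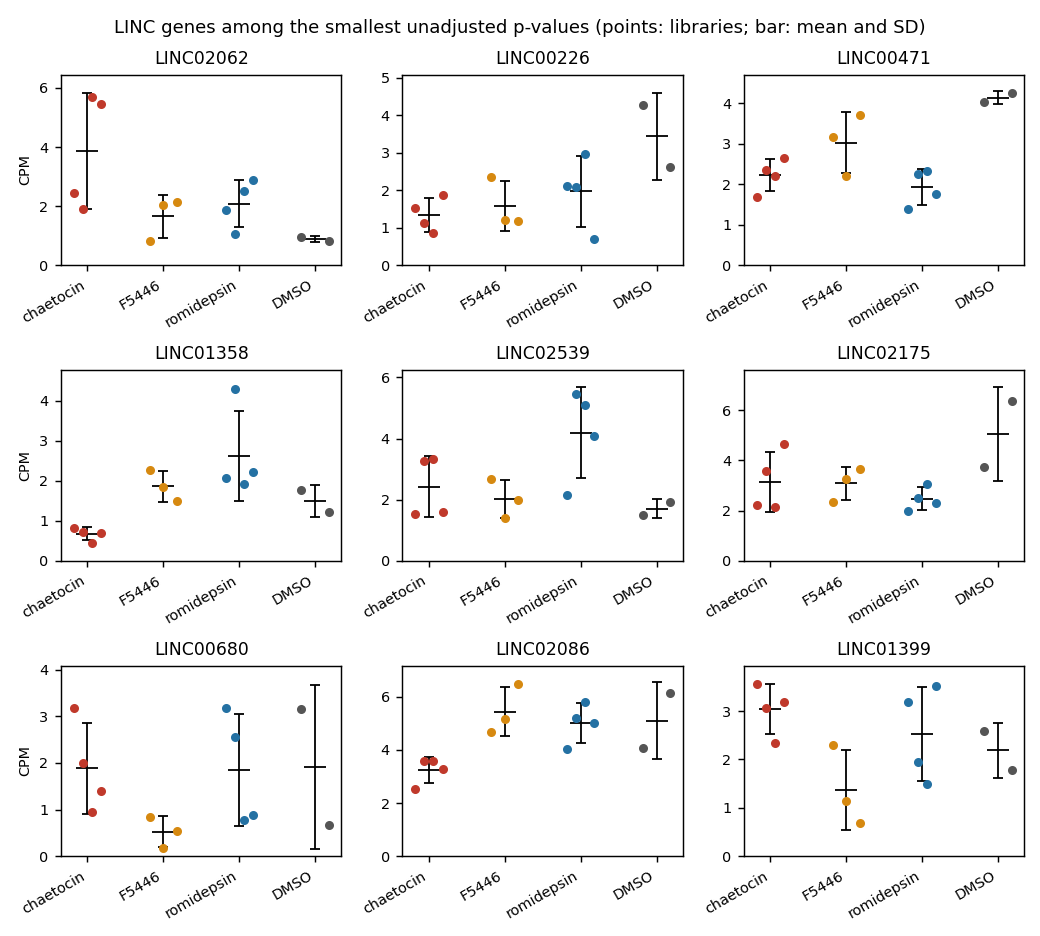
CPM of 9 LINC genes among those with the smallest unadjusted p-values, by library, for chaetocin (n = 4), F5446 (n = 3), romidepsin (n = 4) and DMSO (n = 2), with points for libraries and bars for mean and SD. LINC02062 is highest in chaetocin replicates 3 and 4 at 5.68 and 5.44 CPM, and LINC00471 is highest in the DMSO libraries at 4.02 and 4.25 CPM.

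Between F5446 and DMSO the genes with the smallest p were also low ones. LINC02362 had 26, 38 and 2 counts with F5446 and 0 and 2 counts in DMSO, a ratio of summed CPM of 17.8 (exact 95% interval 4.74 to 150, counting error only). The fitted log2 fold change of 3.91 became 7.29 without DMSO replicate 4, which held both DMSO counts, and 2.97 without DMSO replicate 1. F5446 replicate 4 was at the DMSO level and the other two F5446 libraries were above it. LINC01550 had 2.02, 2.07 and 1.63 CPM with F5446 and 5.41 and 3.29 CPM in DMSO, with no overlap and a log2 fold change of -1.18 (interval -2.23 to -0.14). LINC00680, a transcribed pseudogene, had 0.842, 0.185 and 0.544 CPM with F5446 and 3.16 and 0.676 CPM in DMSO. These overlapped, and its log2 fold change of -1.86 became -0.37 without DMSO replicate 1. LINC02361 had 0.471, 0.480 and 0.990 CPM with F5446 and 2.73 and 1.11 CPM in DMSO, and its log2 fold change of -1.57 became -0.79 without DMSO replicate 1. LINC02195 had 5.93, 2.07 and 1.98 CPM with F5446 and 1.96 and 0.145 CPM in DMSO. LINC02475 had 3.60, 10.3 and 4.55 CPM with F5446 and 3.31 and 3.48 CPM in DMSO. DMSO replicate 4 was the low library for LINC02195, and F5446 replicate 3 the high one for LINC02475. The log2 fold change of LINC02195 was 1.66, and 0.77 without DMSO replicate 4. That of LINC02475 was 0.86, and 0.26 without F5446 replicate 3.

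Between romidepsin and DMSO, LINC00471 (above) had the smallest p. LINC01237 had 0.448, 2.30, 1.30 and 1.67 CPM with romidepsin and 0.240 and 0.193 CPM in DMSO, with no overlap and a log2 fold change of 2.69 (interval 0.56 to 4.82). The 2 DMSO libraries held 5 and 4 counts. Chaetocin gave 0.261, 0.720, 1.79 and 0.622 CPM and F5446 gave 0.438, 0.997 and 0.990 CPM, so all 11 libraries of the compounds were above both DMSO libraries. LINC01237 was picked by its p against these same 2 DMSO libraries, so the other compounds are no separate support. LINC02539 had 2.15, 5.45, 5.09 and 4.08 CPM with romidepsin and 1.49 and 1.93 CPM in DMSO, with a log2 fold change of 1.29 (interval 0.23 to 2.35). LINC02175 had 1.97, 2.50, 3.08 and 2.32 CPM with romidepsin and 3.74 and 6.38 CPM in DMSO, with a log2 fold change of -1.03 (interval -1.88 to -0.18), and -0.60 without DMSO replicate 4. Neither gene's romidepsin and DMSO libraries overlapped. LINC01097 had 13, 29, 14 and 3 counts with romidepsin and none in DMSO. Its summed level was 8.63 times the same floor of 3 counts over both DMSO libraries. That ratio leaves out counting error in the romidepsin counts and the spread between libraries, so it is no lower bound. The count rule also favours genes absent from DMSO. With chaetocin LINC01097 averaged 0.331 CPM in replicates 1 and 2 and 0.150 CPM in replicates 3 and 4. With F5446 it was at 0.202 CPM in replicate 2 and at 0 in replicates 3 and 4. LINC01675 had 0, 0, 3 and 7 counts with romidepsin and 36 and 6 counts in DMSO, and DMSO replicate 1 alone held the high value. Adjusted over all genes in edgeR, the p of each of these genes was 1.

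Only chaetocin and F5446 share a dose and a time, so this was the 1 pair of compounds compared directly. LINC01358, next to JUN, had 0.826, 0.720, 0.449 and 0.700 CPM with chaetocin and 2.26, 1.85 and 1.48 CPM with F5446. The groups did not overlap. The log2 fold change of chaetocin against F5446 was -1.46 (interval -2.48 to -0.44), and -1.31 without chaetocin replicate 3. The log2 ratio of mean CPM plus 0.1 was -1.43 within replicate numbers 1 and 2, where F5446 had 1 library. Within numbers 3 and 4 that ratio was -1.39. The gene was picked by its p over these same libraries, so the parts are no separate support. Romidepsin gave 2.06, 4.30, 1.91 and 2.23 CPM and DMSO 1.77 and 1.21 CPM, so the chaetocin libraries were the low ones of all 13. LINC02086 had 2.52, 3.60, 3.59 and 3.27 CPM with chaetocin and 4.68, 5.17 and 6.48 CPM with F5446, with no overlap and a log2 fold change of -0.74 (interval -1.34 to -0.14). LINC00638 had 3.35, 1.94, 2.64 and 0.972 CPM with chaetocin and 1.21, 0.665 and 0.198 CPM with F5446, which overlapped, with a log2 fold change of 1.65 (interval 0.39 to 2.92). LINC01399, a transcribed pseudogene, had 3.57, 3.07, 2.34 and 3.19 CPM with chaetocin and 2.29, 1.14 and 0.693 CPM with F5446, with no overlap and a log2 fold change of 1.13 (interval 0.17 to 2.09). LINC00680 had 3.17, 2.0, 0.947 and 1.40 CPM with chaetocin and 0.842, 0.185 and 0.544 CPM with F5446, with no overlap and a log2 fold change of 1.83 (interval 0.34 to 3.32). LINC02062 had a log2 fold change of 1.22 (interval 0.18 to 2.27). Without chaetocin replicate 3 the log2 fold changes were -0.79 for LINC02086, 1.57 for LINC00638, 1.24 for LINC01399, 2.06 for LINC00680 and 0.99 for LINC02062. In edgeR none of these 6 differences had an adjusted p below 0.9995. For the 37 genes over 5 CPM the log2 fold changes lay between -0.41 and 0.39, with a median interval half-width of 0.50. Romidepsin was given at 1 µM, so no comparison of it with the other compounds was made.

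Divergent transcripts were compared with their coding partners, a set chosen after values were seen. All 15 partners were in the table, and 14 of the LINC genes entered the fit. LINC01184, beside the ion transporter gene SLC12A2, averaged 14.6 CPM with a log2 fold change of -0.21 with chaetocin against DMSO, where SLC12A2 averaged 34.1 CPM with a log2 fold change of 0.11. LINC00271, beside AHI1, averaged 2.48 CPM and AHI1 178 CPM. LINC02495 averaged 3.63 CPM and its partner JAKMIP1 1.98 CPM, with log2 fold changes of 0.10 and -1.05 with chaetocin against DMSO. No LINC gene of the set and no partner passed the test in edgeR after adjustment.

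**Figure D5:**
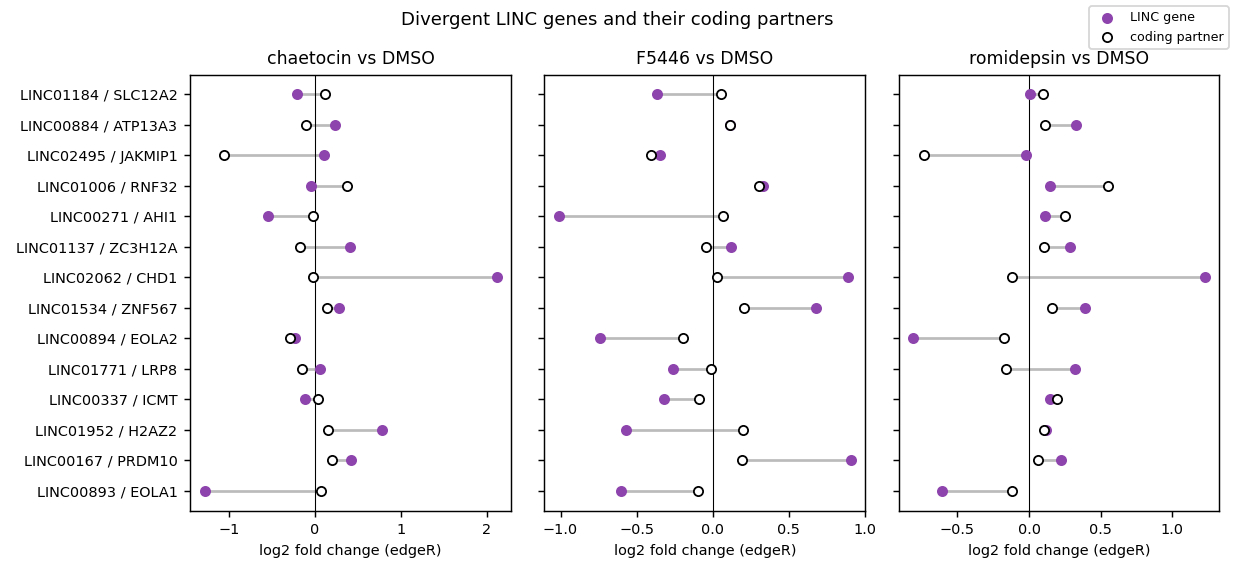
Log2 fold change in edgeR of 14 divergent LINC genes (filled) and their coding partners (open) for chaetocin, F5446 and romidepsin against DMSO. In the chaetocin panel LINC02062 stands at 2.11 and its partner CHD1 at -0.02.

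Of the LINC genes known by name from other work, LINC00426 was a member with 3.44 to 8.56 CPM over all libraries. LINC00861 was in the table but fell short of the rule. LINC00152 and LINC00657 are listed under their current symbols CYTOR and NORAD and so were not members. NORAD averaged 317 CPM with chaetocin and 302 CPM in DMSO, and CYTOR 13.5 CPM with chaetocin and 15.1 CPM in DMSO. Neither was called in any of the 4 comparisons in edgeR. Of a list of 8 LINC genes reported to encode microproteins, 0 were matched by symbol. Only their LINC symbols were searched. These genes now have other symbols, so the lack of a match does not show that they are absent.

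Long noncoding RNAs with other names also gave no call. Of 40 listed genes 39 were in the table and 36 were tested, with 0 called in each comparison in edgeR. At an unadjusted p under 0.05 there were, of the 36, 0 with chaetocin (background 4.07% of all tested genes) against DMSO. There were 3 with F5446 (background 2.48%) and 1 with romidepsin (background 2.82%) against DMSO. Between chaetocin and F5446 there were 0 (background 3.40%). The 3 with F5446 were NEAT1, the scaffold of paraspeckles, FTX and SNHG12, a small nucleolar RNA host gene. NEAT1 averaged 202 ± 22 CPM with F5446 (SD, n = 3) and 343 ± 76 CPM in DMSO (SD, n = 2), with a log2 fold change of -0.77 (interval -1.42 to -0.12, adjusted p = 1 in edgeR). SNHG12 was also the 1 with romidepsin, with a log2 fold change of -0.67 against DMSO. MALAT1, an abundant nuclear RNA, took 2.48 ± 0.42% of all counts with chaetocin (SD, n = 4), 2.22 ± 0.41% with F5446 (n = 3), 2.48 ± 0.43% with romidepsin (n = 4) and 2.95 ± 0.23% in DMSO (n = 2).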

How the data were processed

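RNA from HuT78 cells was sequenced in 13 libraries. Per the labels' protocols, RNA was extracted with a column kit and DNase and libraries were made with a kit meant for RNA from fixed human tissue. Per the submitters' processing notes, bcl2fastq 2.20.0.422, cutadapt 1.8.1 and HTSeq 0.6.1 were used with hg19. An aligner, a strand setting and an annotation release were not given in the sources used here. The deposited values are raw counts per gene by the authors, as whole numbers for 45744 genes, and library totals ran from 19901052 to 30816188.

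All 13 libraries were fitted together with edgeR 4.0.16 in R 4.3.3 (TMM, filterByExpr by group, robust quasi-likelihood test, group as the only term), which tested 17252 genes. Tests were two-sided with Benjamini-Hochberg adjustment over all genes within each of 4 comparisons, at 0.05, with 95% intervals. Separate cultures are not stated for the replicates, so the p-values reflect the spread between these samples alone, which may be technical. No library pair held identical values. Thinning drew each library to 19901052 counts in expectation. Lengths and neighbours came from GENCODE 29 on GRCh38 by gene ID, without coordinates, and promoters from RefSeq GRCh38.p14.

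Named genes were the 12 with the highest mean CPM, the 6 with the smallest p in each comparison, the genes at the edge of the rule and a few LINC names listed from general knowledge. The members and lists were chosen with earlier results of these data known. Alternatives were DESeq2 1.42.0, limma-voom (limma 3.58.1), other scalings and filters, a non-robust fit, a fit of the compared groups only, a replicate block, a term that separates replicates 1 and 2 from 3 and 4, and each library left out. The edgeR step was tested on simulated data for chaetocin against DMSO, with 6 false calls. Of 100 genes changed by 1 on the log2 scale, 42 were recovered, and of 100 changed by 2, 61. Among those under 5 CPM, 1 of 41 and 10 of 46 were recovered. The 105 LINC genes under 1 CPM and the 100 of 1 to 5 CPM lie in that range. For them the lack of calls does not exclude changes of these sizes. Of the B cell list, 1 marker and the list's sum are not reported here. Intervals on summed counts cover counting error only.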

Additional observations from a re-analysis of the deposited data

Results flagged for a closer look

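In groups of 4 to 10 libraries, the highest or lowest library was set against the others by its gap over the group's range, for 90 groups and values. In 5 of them a library stood apart by Dixon's 95% critical value, where chance gives about 1 in 20 groups.

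LINC00667 was lowest in chaetocin replicate 4, at 66.7 CPM, with the next library at 80.9 CPM. LINC00649 was highest in romidepsin replicate 2, at 43.8 CPM, with the next at 27.3 CPM. LINC01358 was highest in the same romidepsin library, at 4.30 CPM, with the next at 2.23 CPM. The summed share of the 242 LINC genes was highest in romidepsin replicate 2 as well, at 0.102% of counts with the next at 0.0882%, and that library held the highest level of all 13 for 41 of 241 LINC genes (17.0%), against 9.62% of all tested genes. The median absolute deviation of LINC genes from their own level over libraries, on the log2 scale, was highest in chaetocin replicate 3, at 0.756 with the next chaetocin library at 0.442.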

How the results depend on the processing

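The count of LINC genes called, 0 in each comparison, was unchanged under all 23 alternatives, 13 of which left out a library, and so was that of other long noncoding RNAs; the range over libraries left out was 0 to 0. The lowest adjusted p was 0.243 for chaetocin against DMSO (DESeq2), 0.954 for F5446, 0.617 for romidepsin and 0.629 for chaetocin against F5446. A fit with a replicate block called 0 LINC genes in each comparison, with a lowest adjusted p of 0.260, and 10, 0, 1 and 11 of all genes in the 4 comparisons in the order given. Libraries of different groups were correlated by their deviations from the mean of their own group. The 15 same-numbered pairs were at 0.036 to 0.222 with a median of 0.106, all above 0. The 47 others were at -0.192 to 0.185 with a median of -0.068. Taking out the group mean makes the 2 DMSO libraries mirror each other, as at 0.162 and -0.162 with chaetocin replicate 1. Part of the contrast between the 2 sets of pairs is therefore fixed in advance, and the pairs are not independent. The main fit did not take the numbers as pairs, since the labels state no pairing and not every pair was over 0.1. That cut is no test of pairing. Pairs within numbers 1 and 2, or within 3 and 4, were all above 0, also those with different numbers. Chaetocin replicate 1 and F5446 replicate 2, for example, were at 0.176. Pairs across these 2 sets were all below 0, so likeness followed the sets and not only the number. F5446 had 1 library in the first set and 2 in the second. The block fit above allows for number and set. A fit with a term for the sets called 0 LINC genes in each comparison, and 7, 0, 1 and 5 of all genes. All 551 alternative values of the LINC genes with the 6 smallest p in each comparison kept their direction. These genes were picked by p from the same libraries, so the kept direction is no separate support.

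DESeq2 called 9, 1, 1 and 2 of all genes, and the fit without the filter 9, 0, 5 and 9, where edgeR called 0. LINC genes at an unadjusted p under 0.05 numbered 14 with DESeq2 against 5 with edgeR for chaetocin and DMSO. They numbered 14 against 7 for romidepsin and DMSO, and 14 against 8 for chaetocin and F5446. The share of all genes at this rule was not taken for DESeq2 or with a library left out. These counts therefore cannot be set against a background. With a library left out, the count for chaetocin and DMSO was 10 without chaetocin replicate 1 and 8 without romidepsin replicate 2. For F5446 and DMSO it was 4 in the main fit, 9 without F5446 replicate 2 and 2 without F5446 replicate 3. For romidepsin and DMSO leaving out romidepsin replicate 2 gave 11. For chaetocin and F5446 the count was 5 without chaetocin replicate 3 and 4 without F5446 replicate 4. Counts without a DMSO library are not given, since they leave 1 library in that group.

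Without LINC00667 the shares were 0.0757% with chaetocin, 0.0826% with romidepsin and 0.0780% in DMSO. LINC genes with at least 5 counts at equal depth numbered 258.4 with chaetocin, 256.0 with F5446, 258.8 with romidepsin and 287.4 in DMSO. With at least 1 count they numbered 360.9, 336.8, 320.7 and 362.1 in the same order. As counted, at 10 counts, they numbered 215.2 with chaetocin, 209 with F5446, 207.2 with romidepsin and 213 in DMSO, so the chaetocin mean was then above that of DMSO. With libraries left out, the share ranged from 0.0804% to 0.0850% with chaetocin, 0.0815% to 0.0893% with F5446, 0.0872% to 0.0925% with romidepsin and 0.0836% to 0.0883% in DMSO, and the number at equal depth from 186.5 to 194.6, 185.5 to 194.0, 188.4 to 197.7 and 200.4 to 219.1 (the libraries left out of these means were added after seeing the data). Precision was lowest for genes under 1 CPM, whose median interval spans 2.93 on the log2 scale to either side.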
